A study of Saccharomyces cerevisiae with 12 samples.

Results

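The response of budding yeast lacking CHO2 to 3 h in a minimal lactate medium was measured by RNA sequencing, by setting 2 libraries of cho2 cells at 3 h in SL against 2 libraries of cho2 cells in YPL. These 4 libraries belong to a series of 12, in which 2 libraries each were made from cho2 cells and from WT cells in 3 states, namely YPL, 1 h in SL and 3 h in SL. The cho2 strain was labelled as CEN.PK, MAT a, with the deletion cho2-delta::KanMX, and WT as CEN.PK of the same mating type. YPL contained yeast extract (1%), peptone (2%) and lactate (2%), whereas SL contained yeast nitrogen base without amino acids (0.17%), ammonium sulfate (0.5%) and lactate (2%). Cultures in logarithmic growth were washed and moved to SL at an A600 of 1.0. No culture that was washed and returned to YPL was analysed here, so the medium, the time and the handling cannot be told apart, and the drug resistance marker of the deletion is carried by the cho2 cells alone. The labels do not say whether the cho2 strain was 1 clone, nor, although the series text calls replicates biological, whether the 2 libraries of a group came from separate cultures, so p-values measure the spread between these libraries. Of the 6685 genes listed, the 6546 with a value of at least 10 in 2 or more libraries were tested.

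CHO2 encodes the methyltransferase that adds the first methyl group to phosphatidylethanolamine on the way to phosphatidylcholine, and S-adenosylmethionine (SAM) is the methyl donor. Each transfer leaves S-adenosylhomocysteine, which is turned into homocysteine and can then feed methionine and cysteine. In yeast the genes of sulfate assimilation and methionine synthesis are activated by Met4 when sulfur amino acids run short. The move from YPL to SL removes amino acids and peptides while the carbon source stays the same. The series title speaks of a role in metabolism for the methylation of phospholipids and histones.

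The level of CHO2 matched the labelled genotype. CHO2 (YGR157W) was at 3.79 to 8.83 normalised reads in the 6 cho2 libraries and at 1569 to 3755 in the 6 WT libraries. MATa-specific genes were expressed in all libraries, with MFA1 at 234 to 872, while the MATalpha-specific genes were low but not all near 0. MF(ALPHA)1 was at 3.13 to 33.2 and STE3 at 92.9 to 323, both highest in cho2 cells at 3 h. MF(ALPHA)2 did not share this peak. Its values were 27.54 and 25.51 in cho2 cells at 3 h, against 36.03 and 28.26 in cho2 cells in YPL. In WT at 3 h they were 42.95 and 41.58. Recovered reads ranged from 3166868 to 12489334 per library, and 9169832 was the second lowest. Values here are normalised read counts, meaning the deposited values brought to 1 scale across libraries with TMM factors. Gene levels given as reads below are such values and not counts of sequenced reads. The second cho2 library at 3 h needed the largest correction, since its median gene lay at -0.34 on the log2 scale against the mean of the 12 libraries before rescaling and at -0.02 after it. The same library held 1.86% of its reads at the 6 listed genes that overlap nuclear ribosomal RNA genes, and the second WT library at 3 h held 0.658%, against 0.0131% to 0.0296% in the other 10 libraries. None of these 6 genes passed in any of the 4 comparisons below, and the part of this ribosomal share in other results was not tested. After rescaling the 2 cho2 libraries at 3 h correlated across genes with r = 0.976 and the 2 cho2 libraries in YPL with r = 0.995, where genes are not independent replicates.

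In cho2 cells 4229 genes (64.6% of those tested) differed between 3 h in SL and YPL at a Benjamini-Hochberg adjusted p under 0.05 (limma). Of these, 1910 rose (29.2%) and 2319 fell (35.4%). A difference of at least 1 on the log2 scale, which is 2-fold, was reached by 677 genes that rose (10.3%) and 1110 that fell (17.0%). The median over all tested genes was -0.05 on the log2 scale. On the values as deposited, without rescaling, 1296 genes rose and 2420 fell, so 34.9% of the calls were rises, against 45.2% after rescaling, and the median over all genes lay at -0.18. Counts of modest rises and falls therefore move with the scaling, and each list below is read against the median and the shares given here. In bulk RNA, less of a transcript in each cell and fewer cells that carry it cannot be told apart.

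**Figure D1:**
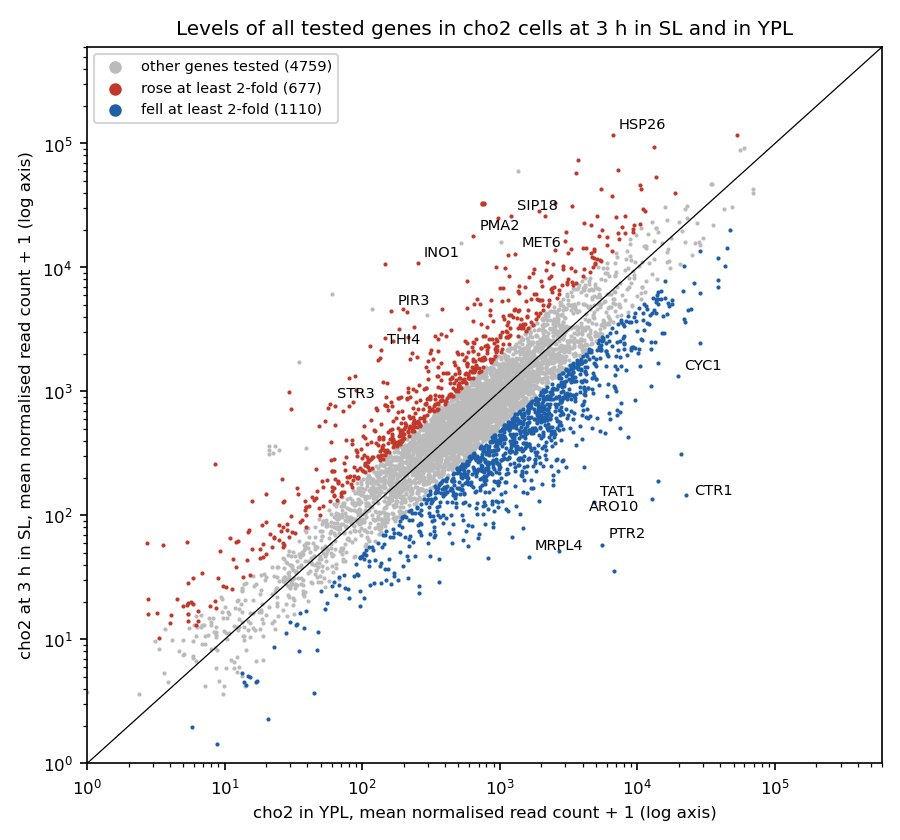
Mean normalised read count + 1 of each of the 6546 tested genes in cho2 cells at 3 h in SL (vertical, log axis) against cho2 cells in YPL (horizontal, log axis), 2 libraries each. Coloured points passed with at least a 2-fold difference, 677 that rose and 1110 that fell; the line marks equal levels. Most genes lie along the line, and the largest named fall reaches further from it than the largest named rise, with CTR1 at -7.26 and INO1 at 5.41 on the log2 scale.

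Largest rises and falls are named here among genes with no near-identical copy and a mean of at least 50 reads in the higher group. The largest such rise belonged to INO1 (YJL153C), the inositol-3-phosphate synthase that supplies phosphatidylinositol synthesis. INO1 had 10099.9 and 11458 reads in cho2 cells at 3 h in SL, against 247 and 258 in cho2 cells in YPL. Both SL libraries lay far above both YPL libraries, and the log2 difference was 5.41 ± 0.10 (± SE; limma adjusted p = 7.26e-12). At 1 h the gene already stood at 6008 and 5864. PMA2 (YPL036W), a second plasma membrane proton pump beside PMA1, had 16256 and 19582 reads at 3 h, against 659 and 617 in YPL, a difference of 4.80 ± 0.14. PMA1 itself fell, at -0.74 ± 0.25, a call that was lost without either YPL library or without the first library at 3 h. PIR3 (YKL163W), a cell wall protein, had 3301 and 5636 reads at 3 h, against 179 and 143 in YPL; the libraries at 3 h lay further apart from each other than those in YPL, yet above both of them, and the difference was 4.74 ± 0.22. SPS100 (YHR139C), a spore wall gene, had 4663 and 4509.6 reads at 3 h, against 176 and 217 in YPL, and most of its difference of 4.54 ± 0.15 arose after the first hour, since 1 h libraries held only 399 and 396. SIP18 (YMR175W) and GRE1 (YPL223C), hydrophilin genes of the response to drying and salt, rose by 4.40 ± 0.29 and 4.30 ± 0.22. GID10 (YGR066C), a substrate receptor of the GID ubiquitin ligase, rose by 4.56 ± 0.13, and SHC1 (YER096W), an activator of chitin synthesis, by 4.34 ± 0.18. RCK1 (YGL158W), a protein kinase gene, had 59.8 and 53.6 reads at 3 h, against 0.948 and 4.16 in YPL, and LSO1 (YJR005C-A) had 60.8 and 57.8 reads at 3 h, against 0.948 and 2.49 in YPL. Both rose, and no fold is given because the YPL values come from so few reads. DPA10 (YLR307C-A), SHH3 (YMR118C) and DPC7 (YKL065W-A) rose by 4.67 ± 0.23, 4.12 ± 0.14 and 4.00 ± 0.29. CRS5 and HSP26, which complete the 15 rises named, are described with their lists.

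The largest fall was that of CTR1 (YPR124W), the high-affinity copper transporter of the plasma membrane. CTR1 had 139.6 and 153 reads in cho2 cells at 3 h in SL, against 22284 and 22728 in cho2 cells in YPL. Both libraries at 3 h were far below both in YPL, and the difference was -7.26 ± 0.12 on the log2 scale (limma adjusted p = 4.86e-12). CYC1 (YJR048W), the main cytochrome c isoform, had 1275 and 1366 reads at 3 h, against 20215 and 19319 in YPL, a difference of -3.90 ± 0.11. PTR2 (YKR093W), the transporter of di- and tripeptides, had 58.9 and 55.3 reads at 3 h, against 5815 and 5252 in YPL. Its difference was -6.57 ± 0.32, and the gene had been lower still at 1 h, at 6.33 and 17.7. The other falls named by rule were those of copper genes, amino acid permeases, amino acid breakdown genes and mitochondrial ribosomal proteins, which are described below. Among the 30 genes named as largest rises and falls, the libraries at 3 h and in YPL did not overlap, which the rule required.

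**Figure D2:**
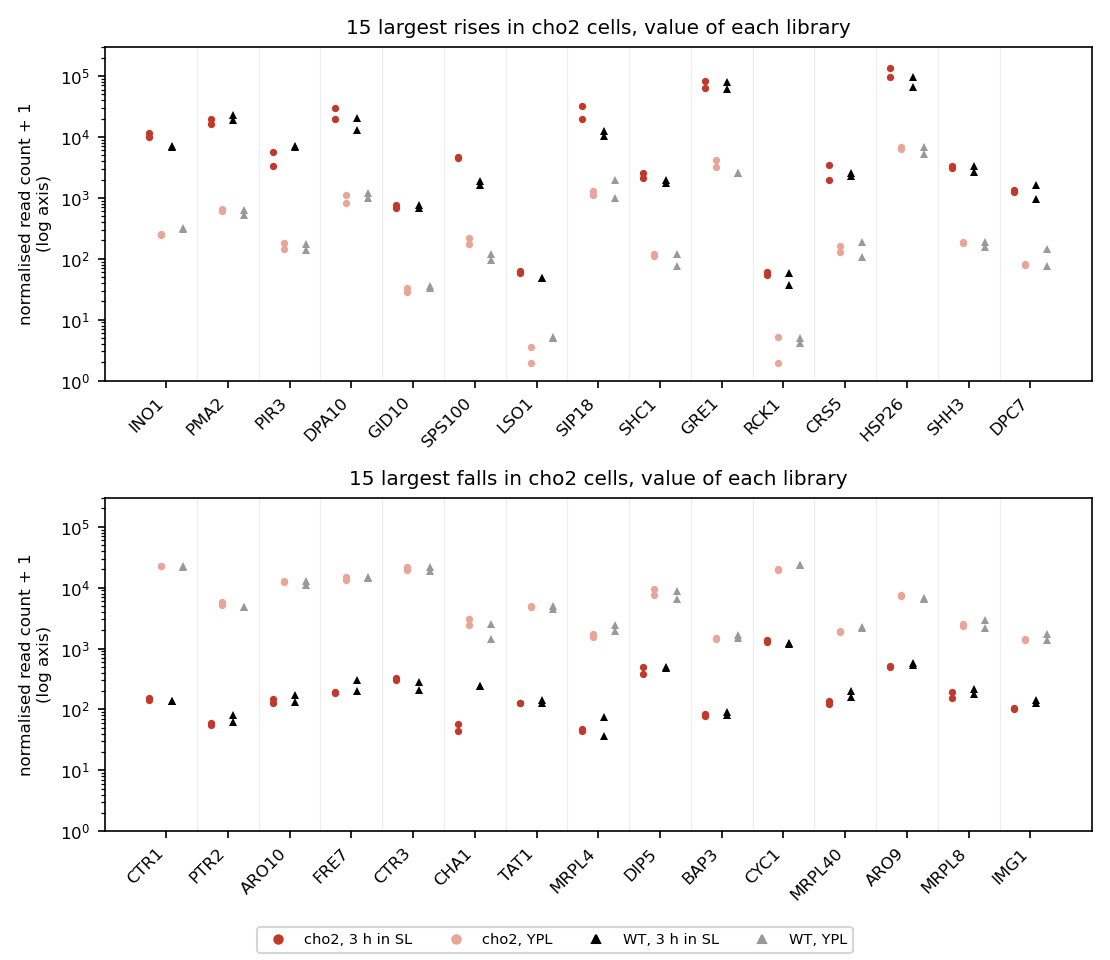
Normalised read count + 1 (vertical, log axis) of the 15 named rises (top) and 15 named falls (bottom) in cho2 cells, 1 point per library. Circles are cho2 at 3 h in SL and in YPL, triangles WT at 3 h in SL and in YPL. For every gene both cho2 libraries at 3 h lie on the same side of both cho2 libraries in YPL, as for CTR1 at 139.6 and 153 against 22284 and 22728.

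Copper genes moved in both directions. Of the 13 listed, 6 fell and 3 rose. CTR3 (YLR411W), the other high-affinity copper transporter, had 305 and 323 reads at 3 h, against 19774 and 21460.3 in YPL, a difference of -6.03 ± 0.14. The metalloreductase genes FRE7 (YOL152W) and FRE1 fell, at -6.22 ± 0.16 and -3.39 ± 0.18. IRC7, a beta-lyase gene placed in the list, fell by 3.42 ± 0.17. The 3 that rose were metallothionein genes, which bind excess copper. CRS5 (YOR031W) had 1933 and 3488 reads at 3 h, against 159 and 129.7 in YPL, a difference of 4.17 ± 0.31. The tandem copies CUP1-1 and CUP1-2 had differences of 5.44 ± 0.16 and 5.38 ± 0.15, and reads of the 2 cannot be assigned with certainty because their sequences are nearly identical. MAC1, the regulator of copper uptake, did not pass, at 0.14 ± 0.11. Among 28 genes of iron uptake and use, 14 fell and 8 rose, with a list median of -0.37. The falls included SIT1, a siderophore transporter, at -2.73 ± 0.13, FIT3, a cell wall mannoprotein, at -2.96 ± 0.24, and FET3, the iron oxidase, at -1.76 ± 0.12. Of 12 zinc genes, 7 rose and 1 fell, with the transporter ZRT1 at 1.29 ± 0.14 and its regulator ZAP1 at 0.91 ± 0.14.

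Genes for amino acid uptake and breakdown mostly fell. All 9 permease genes listed as switched on by external amino acids through the SPS sensor fell at least 2-fold, with a median of -2.84. In WT 8 of the 9 fell. TAT1 (YBR069C), which takes up valine, leucine, isoleucine and tyrosine, had 128 and 127 reads at 3 h, against 4768 and 4933 in YPL, a difference of -5.24 ± 0.12. DIP5 (YPL265W), for glutamate and aspartate, had 374 and 489.8 reads at 3 h, against 7676 and 9557 in YPL, a difference of -4.32 ± 0.17. The groups were fully apart for both. BAP3 (YDR046C), a branched-chain permease, fell by 4.20 ± 0.14, and the methionine permease MUP1 fell by 2.08 ± 0.16. Genes that break amino acids down gave 12 falls and 4 rises among 18, with a median of -1.92. ARO10 (YDR380W), the phenylpyruvate decarboxylase of the Ehrlich pathway, had 126 and 145 reads at 3 h, against 12591 and 12900.3 in YPL, a difference of -6.55 ± 0.14. CHA1 (YCL064C), the serine and threonine deaminase, had 43.7 and 57.0 reads at 3 h, against 2391 and 3000.4 in YPL, a difference of -5.72 ± 0.25. ARO9 (YHR137W), an aromatic aminotransferase, fell by 3.87 ± 0.09, the arginase gene CAR1 fell by 3.38 ± 0.16, and the proline oxidation genes PUT1 and PUT2 fell, at -2.44 ± 0.09 and -2.30 ± 0.09. The rises in this list were PDC6, GCV1, UGA3 and SFA1, of which PDC6 also belongs to the sulfur list below. Of 22 genes repressed by good nitrogen sources, 8 fell, 4 rose and 10 did not pass, with a median of -0.07. Falls were about as frequent there as among all tested genes, of which 35.4% fell, with a median of -0.05. The ammonium permease MEP2 rose by 0.79 ± 0.18, while the general amino acid permease GAP1 did not pass, at -0.12 ± 0.13.

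Genes for the synthesis of several amino acids rose. In the arginine list 9 of 10 genes rose and none fell, with a median of 1.72. ARG3, ornithine carbamoyltransferase, had 1242 and 1126 reads at 3 h, against 140.3 and 141 in YPL, a difference of 3.06 ± 0.14. ARG4, argininosuccinate lyase, rose by 2.28 ± 0.14. For histidine 7 of 9 genes rose and 1 fell, with HIS4 at 1.33 ± 0.13 and HIS1 at 1.19 ± 0.10; the transcript of GCN4, the activator of these pathways, which is controlled mainly at translation, did not pass at 0.08 ± 0.16. Among 9 lysine genes 5 rose and none fell, led by LYS1 at 1.28 ± 0.13. Branched-chain synthesis gave 7 rises and 3 falls of 11, with LEU1 at 1.81 ± 0.11 and LEU2 at 1.59 ± 0.14 against BAT2, the cytosolic aminotransferase, at -3.46 ± 0.16. Aromatic amino acid synthesis gave 3 rises and 5 falls of 14. In ammonium assimilation GLN1, glutamine synthetase, and GLT1, glutamate synthase, rose by 0.98 ± 0.12 and 1.03 ± 0.12. Purine genes gave 1 rise, ADE17 at 1.52 ± 0.19, and 7 falls of 14, among them the IMP dehydrogenase genes IMD3 and IMD4 at -1.63 ± 0.16 and -1.57 ± 0.29.

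Of the 56 listed genes of sulfur metabolism, 37 rose in cho2 cells at 3 h in SL against YPL, 12 fell and 7 did not pass. In sulfate assimilation 9 of 10 genes rose and 1 fell, with a median of 1.31. MET3 (YJR010W), the ATP sulfurylase that activates sulfate, had 7147 and 6798 reads at 3 h, against 2173 and 2767 in YPL, a difference of 1.51 ± 0.13. MET16, the reductase of the next activated form, had 2252 and 1867 reads at 3 h, against 283 and 337 in YPL, a difference of 2.73 ± 0.17. The sulfate transporters SUL1 and SUL2 rose by 0.77 ± 0.15 and 1.31 ± 0.11, and MET8, which serves siroheme synthesis, fell by 0.83 ± 0.15. Homocysteine and methionine synthesis gave 9 rises and 1 fall of 11. STR3, the cystathionine beta-lyase that passes cysteine sulfur to homocysteine, had 737 and 852 reads at 3 h, against 60.7 and 54.9 in YPL, a difference of 3.76 ± 0.14. HOM3, aspartate kinase, and MET6, methionine synthase, rose by 3.03 ± 0.12 and 3.32 ± 0.13. MET17 (YLR303W), which joins sulfide to O-acetylhomoserine, rose by 0.91 ± 0.18, with the reservation that it overlaps YLR302C. Scavenging and sparing of sulfur gave 6 rises and no fall of 8, with PDC6, a pyruvate decarboxylase poor in sulfur amino acids, at 2.88 ± 0.12 and YCT1, a cysteine transporter, at 2.00 ± 0.17.

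SAM and cysteine genes split. Of 10 genes for SAM synthesis, uptake and recycling, 5 rose and 4 fell. The SAM synthetase genes went opposite ways, with SAM2 at 0.88 ± 0.18 and SAM1 at -1.06 ± 0.13. SAM3 and MMP1, transporters of SAM and of S-methylmethionine, rose by 1.51 ± 0.28 and 0.92 ± 0.14, while MHT1 and SAM4, which use these 2 compounds to methylate homocysteine, fell, at -1.23 ± 0.12 and -1.23 ± 0.12. SAH1, the hydrolase of S-adenosylhomocysteine, had 2716 and 3584 reads at 3 h, against 3986 and 3282 in YPL, and did not pass, at -0.21 ± 0.17. Both genes of transsulfuration from homocysteine to cysteine fell, CYS3 at -1.91 ± 0.14 and CYS4 at -0.89 ± 0.16, whereas the reverse genes STR2 and STR3 and the glutathione synthesis gene GSH1 rose, STR2 by 1.01 ± 0.11 and GSH1 by 1.15 ± 0.14. Among the 6 regulators of the Met4 complex, MET28 and MET32 rose by 2.42 ± 0.17 and 2.11 ± 0.11, CBF1 fell by 0.95 ± 0.19, and MET4 and the ubiquitin ligase gene MET30 did not pass, at 0.32 ± 0.18 and 0.27 ± 0.16.

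Lipid genes beyond INO1 changed less evenly. In the CDP-diacylglycerol route, where Cho2 acts, 5 genes rose and 4 fell of 13. OPI3, the methyltransferase of the later steps, had 2015 and 2794 reads at 3 h, against 1169 and 1173 in YPL, a difference of 1.02 ± 0.14. PSD1, the mitochondrial phosphatidylserine decarboxylase, fell by 1.09 ± 0.11, and CHO1, phosphatidylserine synthase, did not pass, at -0.23 ± 0.14. In the Kennedy pathway, which makes phosphatidylcholine from choline without methylation, 4 genes rose and 2 fell of 7. CPT1, the cholinephosphotransferase, had 4088 and 4141 reads at 3 h, against 1192 and 1143 in YPL, a difference of 1.82 ± 0.10. The choline transporter HNM1 rose by 0.98 ± 0.17, whereas PCT1, its rate-limiting enzyme, fell by 0.61 ± 0.11. The activator gene INO2 and the repressor gene OPI1 rose by 1.14 ± 0.17 and 0.87 ± 0.17. SCS2, the membrane anchor of Opi1, fell by 1.80 ± 0.19. Fatty acid genes gave 5 rises and 4 falls of 13, with the desaturase OLE1 at 2.13 ± 0.13, the synthase subunit FAS1 at 1.85 ± 0.20 and the carboxylase ACC1 at 1.69 ± 0.17, against the elongase genes ELO2 and ELO3 at -1.58 ± 0.15 and -1.51 ± 0.19. Of 23 ergosterol genes 10 rose and 7 fell, and the largest rises were those of ERG5 at 2.14 ± 0.23 and ERG25 at 2.09 ± 0.16. The falls numbered 3 without the first YPL library, and 4 without the second YPL library, without the first library at 3 h and after quantile normalization.

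Lists of other SAM users and their partners held both rises and falls. Of 16 genes for histone methylation and demethylation 7 rose and 2 fell. The histone demethylase genes JHD2, RPH1 and JHD1 rose, by 2.20 ± 0.14, 1.56 ± 0.14 and 0.88 ± 0.10. GIS1, which carries the same demethylase fold, fell, at -1.49 ± 0.12. In the list of PP2A-type phosphatases, whose catalytic subunit is methylated by Ppm1, 8 of 17 genes rose and 6 fell, all but SIT4 and RRD1 by less than 1 on the log2 scale. The rises numbered 3 on the values as deposited, 4 without the first library at 3 h and 5 without the first in YPL. PPM1 fell, at -0.28 ± 0.11, a call lost in 7 of 14 alternatives, and the catalytic subunit gene PPH21 rose by 0.51 ± 0.09. Polyamine synthesis and methionine salvage gave 6 rises and 7 falls of 15 genes. Polyamine synthesis, which consumes decarboxylated SAM, had SPE1 at -1.73 ± 0.14 and SPE2 at -1.03 ± 0.12, while OAZ1, the antizyme that limits Spe1, rose by 2.32 ± 0.18. One-carbon and glycine cleavage genes gave 6 rises and 5 falls of 14, where 2 rises and 4 falls were at least 2-fold. Among them the glycine cleavage genes GCV1, GCV2 and GCV3 rose by 1.81 ± 0.13, 0.97 ± 0.10 and 1.25 ± 0.13. Both formate dehydrogenase genes rose, FDH1 by 2.49 ± 0.17 and FDH2 by 2.57 ± 0.17.

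Mitochondrial genes were mostly lower. Of 77 genes listed as mitochondrial ribosomal proteins, 75 fell, each at least 2-fold as did 17.0% of all genes tested, with a median of -2.21. MRPL4 (YLR439W) had 47.5 and 43.4 reads at 3 h, against 1720.2 and 1529 in YPL, a difference of -5.13 ± 0.27. MRPL40 (YPL173W), MRPL8 (YJL063C) and IMG1 (YCR046C) followed at -3.89 ± 0.13, -3.82 ± 0.17 and -3.75 ± 0.14. The 2 that did not pass were MRP8, at 0.28 ± 0.12, and KGD4, at 0.33 ± 0.29, which is now assigned to the 2-oxoglutarate dehydrogenase complex and not to the ribosome. In the tricarboxylic acid (TCA) cycle 16 of 22 genes fell and 2 rose, with a median of -1.02. CIT1, mitochondrial citrate synthase, had 8022 and 7944 reads at 3 h, against 39943 and 36906 in YPL, a difference of -2.27 ± 0.15, whereas CIT3 rose by 1.38 ± 0.15. In the respiratory chain and ATP synthase 34 of 45 genes fell and 4 rose, with a median of -0.85. Falls covered the internal NADH dehydrogenase NDI1 at -2.37 ± 0.12, the complex III subunit COR1 at -2.39 ± 0.13, the ATP synthase subunit ATP1 at -1.85 ± 0.22 and HAP4, the activator of respiratory genes, at -1.63 ± 0.11. The 4 rises were the alternative cytochrome c gene CYC7 at 2.36 ± 0.19, the external dehydrogenase NDE2 at 2.41 ± 0.15, COX5B at 0.93 ± 0.23 and STF2 at 0.87 ± 0.15.

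Carbon metabolism changed although lactate was present in both media. Of 14 genes for lactate use and gluconeogenesis 9 fell and 4 rose. The mitochondrial lactate dehydrogenases DLD1 and CYB2 fell, at -1.71 ± 0.15 and -0.71 ± 0.17, and the lactate permease JEN1 fell by 0.68 ± 0.18, a call lost without the first library at 3 h or the second in YPL. ADY2, an acetate permease, rose by 3.11 ± 0.24, and MDH2, the cytosolic malate dehydrogenase, by 1.23 ± 0.16. In glycolysis and fermentation 10 of 22 genes rose and 4 fell, with HXK2, the glucose-repressing hexokinase, at -2.72 ± 0.15 and the enolase gene ENO1 at 1.75 ± 0.25. Hexose transporter genes gave 8 rises and 1 fall of 11, though neither medium had hexose added. HXT5 had 32849 and 43218 reads at 3 h, against 5908 and 7107 in YPL, a difference of 2.54 ± 0.22. HXT1 rose by 2.12 ± 0.24; HXT6 and HXT7, which rose too, are near-identical copies. In the thiamine list 15 of 21 genes rose and 4 fell, where 8 members have near-identical copies. THI4, which builds the thiazole ring, had 1931 and 2382 reads at 3 h, against 129.9 and 139.6 in YPL, a difference of 3.98 ± 0.18. Phosphate genes gave 10 falls and 2 rises of 19, with the glycerophosphoinositol transporter GIT1 at -3.45 ± 0.21 and PHM8 at 3.15 ± 0.10.

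Genes of cytosolic translation mostly fell. Of 138 cytosolic ribosomal protein genes 117 fell and 1 rose, with a median of -1.10, and 21 of them have near-identical copies that could share reads. RPP0, the stalk protein, had 713 and 898 reads at 3 h, against 8716 and 6539 in YPL, a difference of -3.24 ± 0.17. RPS14B was the member that rose, at 0.40 ± 0.14, a call lost on the values as deposited and without the second library of either group. Among 31 translation factors, 6 of them with near-identical copies, 27 fell and none rose, with the elongation factor YEF3 at -0.94 ± 0.20. Among 20 aminoacyl-tRNA synthetases 15 fell and none rose. Ribosome biogenesis factors did not share this fall as a list. They gave 14 rises, 36 falls and 53 of 103 genes that did not pass, and a median of -0.13. Falls were about as frequent as among all tested genes, of which 35.4% fell and 29.2% rose. NOP1, the nucleolar methyltransferase, fell by 1.94 ± 0.14, and RRP36 rose by 1.30 ± 0.20. This list rests on the scaling and on single libraries, since its falls numbered 25 and its rises 22 after quantile normalization, its rises 8 on the values as deposited and its falls 19 without the first YPL library.

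General stress, chaperone, autophagy and proteasome genes mostly rose, while genes of folding in the endoplasmic reticulum gave 5 rises and 6 falls of 18 and vacuolar protease genes 3 rises and 1 fall of 10. In the list of general stress genes under Msn2 and Msn4, 22 of 26 rose and 1 fell, with a median of 1.41. HSP26 (YBR072W), a small heat shock protein, had 97427 and 136890.0 reads at 3 h, against 6863 and 6325 in YPL, a difference of 4.13 ± 0.24. CTT1, the cytosolic catalase, had 7689.8 and 7857 reads at 3 h, against 546 and 615 in YPL, a difference of 3.74 ± 0.13. HSP12 and DDR2 rose by 2.86 ± 0.23 and 3.92 ± 0.29, and XBP1, a repressor of cyclin genes, fell by 1.97 ± 0.22. Among 26 chaperone genes, 4 of them with near-identical copies, 17 rose and 4 fell, from SSA3 at 3.89 ± 0.13 and SSE2 at 2.76 ± 0.13 to the mitochondrial HSP60 at -2.61 ± 0.16. Autophagy genes gave 26 rises and 3 falls of 35, with a median of 0.91. ATG1, the initiating kinase, had 1464 and 1432 reads at 3 h, against 484 and 524 in YPL, a difference of 1.52 ± 0.10. ATG39, a receptor for turnover of the nuclear envelope, and ATG34 rose by 2.25 ± 0.13 and 2.05 ± 0.13, and ATG18 fell by 1.39 ± 0.18. Proteasome genes also gave 26 rises and 3 falls of 35, but of modest size, with a median of 0.57 and PRE3 highest at 1.12 ± 0.15. Thioredoxin, glutaredoxin and peroxiredoxin genes gave 13 rises and 5 falls of 24, with TRX2 at 1.59 ± 0.24 and TRR1 at -1.89 ± 0.09. Genes for trehalose and glycogen had no common direction, with 7 rises and 6 falls of 21.

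Cyclin genes mostly fell, while the other lists of cell division were more mixed. Among all tested genes 35.4% fell and 29.2% rose. Of 13 cyclin genes and partners 11 fell and 1 rose, with a median of -1.29. CLN1, a G1 cyclin, had 285 and 282 reads at 3 h, against 2058 and 2286 in YPL, a difference of -2.93 ± 0.14. CLN3, the upstream G1 cyclin, and CLB2, a mitotic cyclin, fell, at -1.71 ± 0.16 and -1.21 ± 0.14, while CDC6, a loader of the replicative helicase, rose by 0.91 ± 0.19. Replication genes gave 12 falls and 5 rises of 25, with the ribonucleotide reductase subunit RNR1 at -1.22 ± 0.15 and MCM5 at 0.87 ± 0.10. Of 11 histone genes 6 fell and 3 rose, and 2 of the 11 have near-identical copies that could share reads. Within the pairs of gene copies, HTB2 fell by 2.22 ± 0.13 and HTB1 rose by 0.97 ± 0.15. HTA2 fell by 1.43 ± 0.37 and HTA1 rose by 0.93 ± 0.23, where the call for HTA2 was lost without the first library at 3 h. In the genes of daughter cell separation 8 of 13 fell and 2 rose, with the chitinase CTS1 at -1.41 ± 0.12. Cell wall protein genes gave 12 falls and 6 rises of 23, from CIS3 at -3.54 ± 0.20 and FLO11 at -3.52 ± 0.34 to PIR3; in this list the second cho2 library at 3 h lay 0.39 above the first on the log2 scale at the median gene.

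**Figure D3:**
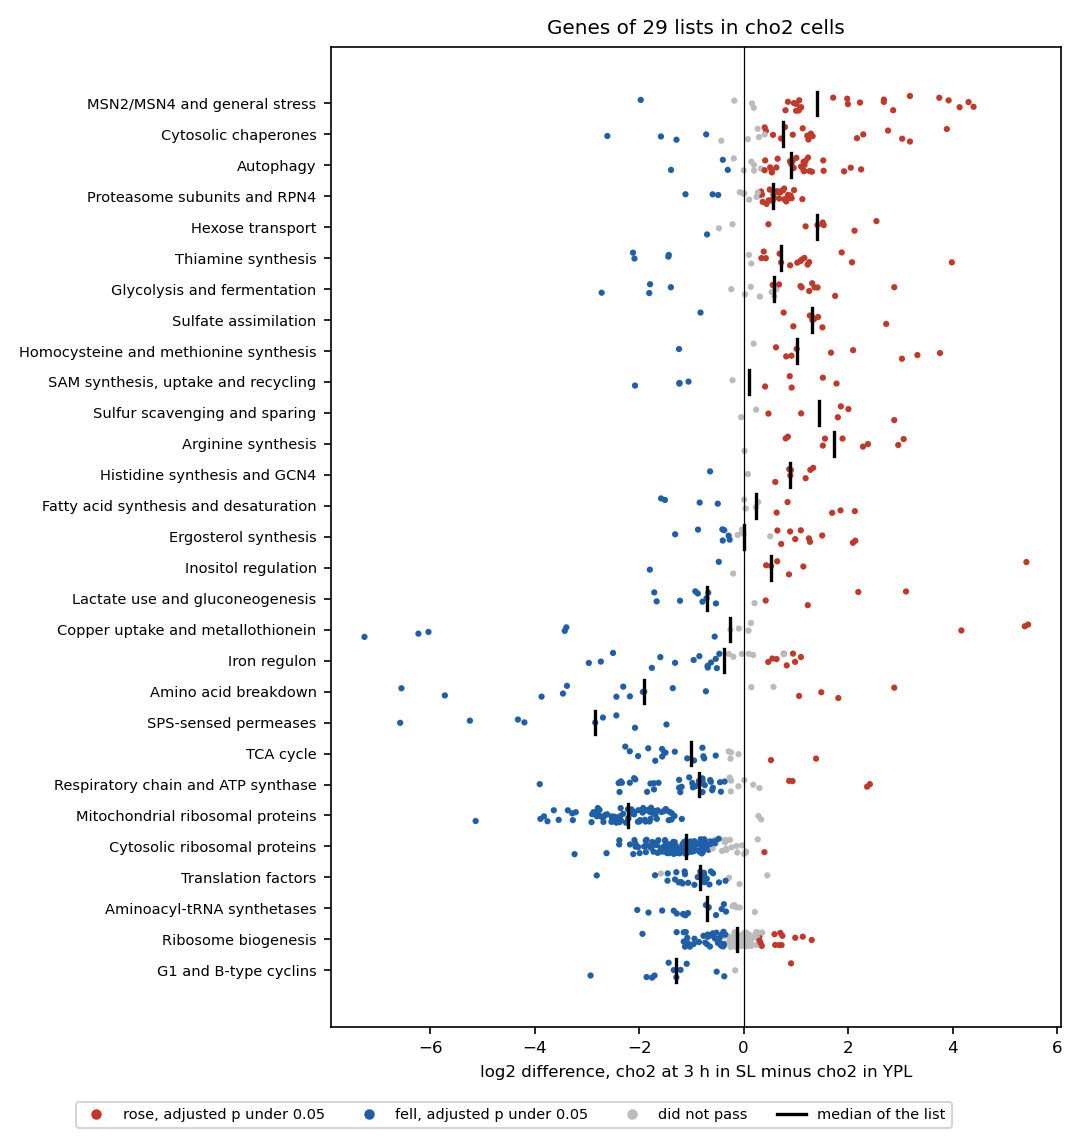
Log2 difference of cho2 at 3 h in SL minus cho2 in YPL (horizontal) for the tested genes of 29 lists (vertical), 1 point per gene with the list median as a bar. Red points rose and blue points fell at a limma adjusted p under 0.05, grey points did not pass. Mitochondrial ribosomal proteins lie almost wholly to the left with a median of -2.21, and the general stress list mostly to the right with a median of 1.41, where all tested genes have a median of -0.05.

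The time course in cho2 cells separated early from late changes. Between 1 h and 3 h in SL 2604 genes differed (39.8% of those tested), of which 1310 were higher at 3 h (20.0%) and 1294 lower (19.8%), a comparison that shares the 3 h libraries with the one above. On the values as deposited the same comparison gave 523 higher and 1555 lower, so its split rests on the rescaling. Of the 138 cytosolic ribosomal protein genes 107 were higher at 3 h than at 1 h and 4 lower, with a median of 0.83 on the log2 scale. For ribosome biogenesis 83 of 103 were higher and none lower, with a median of 0.66. Both lists thus stood above their 1 h level at 3 h. Sulfate assimilation went the other way, and all 10 genes were lower at 3 h than at 1 h, with a median of -1.27. MET3 was at 2173 and 2767 reads in YPL, 23382 and 23294 at 1 h and 7147 and 6798 at 3 h. OLE1 was at 10578 and 10482 reads in YPL, 5949 and 6614 at 1 h and 45407 and 46570.0 at 3 h, so its 3 h level exceeded that at 1 h by 2.87 ± 0.13. Mitochondrial ribosomal proteins moved little as a list after 1 h, with 20 higher, 11 lower and a median of 0.23. The 8 of 13 cyclin genes that were lower at 3 h than at 1 h included CLB2, at -2.24 ± 0.14, and none was higher.

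WT cells were put through the same switch. In WT 4090 genes passed (62.5%), of which 1904 rose (29.1%) and 2186 fell (33.4%). Across the 6546 genes the response of cho2 cells (the log2 difference of 3 h in SL minus YPL) correlated with that of WT with r = 0.941, as a description over genes, and no library enters both. The 3548 genes that passed in both strains made up 83.9% of the calls in cho2 cells and 86.7% of those in WT, and 3539 of them had the same direction. The 9 with opposite directions were MHT1, CWP1, YNL203C, SPS19, MLS1 and FMP48, which fell in cho2 cells and rose in WT, and SRD1, TSR2 and ODC2, which rose in cho2 cells and fell in WT; those outside the lists were chosen after their values were seen. The difference of the responses itself passed for MHT1, YNL203C, SPS19 and ODC2 among these 9. SPS19 is YNL202W, a neighbour of YNL203C by locus name, and their strain differences were similar, at -1.08 and -1.16. Whether these 2 genes share reads was not tested.

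The strain difference of the response was tested directly in the same limma fit, and 61 genes passed (0.932% of those tested). The response was higher in cho2 cells for 15 genes (0.229%) and lower for 46 (0.703%). Sulfur genes made up a large part of the 46. Of the 56 genes in the 6 lists of sulfate assimilation, methionine, SAM, scavenging, Met4 regulators and transsulfuration, 24 (42.9%) had a lower response in cho2 cells and none a higher one, against 0.703% lower among all tested genes. In sulfate assimilation it was 9 of 10. Sulfur genes had been known to differ between the strains when these lists were written, so the count describes them and is no independent test.

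For MET3 the WT libraries had 13946 and 15728 reads at 3 h in SL, against 344 and 377 in YPL. With the cho2 values given above, the response was 1.51 ± 0.13 in cho2 cells and 5.36 ± 0.13 in WT, a strain difference of -3.85 ± 0.19 (limma adjusted p = 1.28e-06). The cho2 libraries thus lay above the WT libraries in YPL and below them at 3 h, without overlap in either medium. MET17 had 18447 and 18278 reads in cho2 cells at 3 h, against 8977 and 10571 in cho2 cells in YPL, and 39390.0 and 30283 in WT at 3 h, against 2326 and 2001 in WT in YPL, a strain difference of -3.09 ± 0.26. The same arrangement held for MET10, at -2.55 ± 0.18, MET14, at -2.39 ± 0.19, and MET5, at -2.25 ± 0.19, subunits or enzymes of the steps from sulfate to sulfide. AGP3 (YFL055W), a permease gene listed with sulfur scavenging, had 1045 and 1071 reads in cho2 cells at 3 h, against 302 and 280.1 in cho2 cells in YPL, and 3913 and 3822 in WT at 3 h, against 265 and 247 in WT in YPL. Here the strains stood close in YPL and apart at 3 h, with a strain difference of -2.05 ± 0.14. MUP1 had 619 and 666 reads in cho2 cells at 3 h, against 2893 and 2552 in cho2 cells in YPL, and 2097 and 1613 in WT at 3 h, against 1617 and 1477 in WT in YPL, so that it fell in cho2 cells, did not pass in WT at 0.25 ± 0.16, and differed between them by -2.33 ± 0.22. MHT1 differed by -1.94 ± 0.17 and GRX8, a glutaredoxin gene, by -1.89 ± 0.24. Of the 56 sulfur genes, 39 had a higher mean in cho2 than in WT cells in YPL and 47 a lower mean at 3 h, differences within a medium that were not tested here. STR3 and HOM3 did not pass, with strain differences of -0.09 ± 0.19 and -0.03 ± 0.17.

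**Figure D4:**
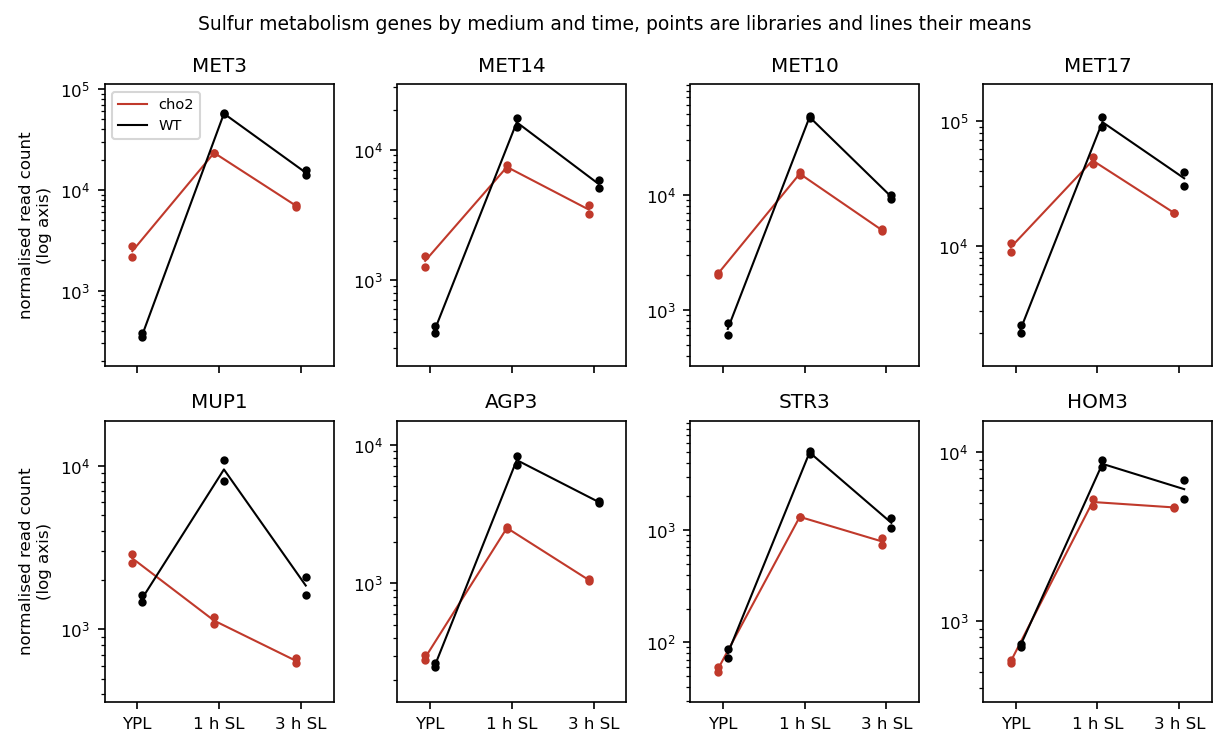
Normalised read count (vertical, log axes of different range) of 8 genes of sulfur metabolism, by state from YPL over 1 h to 3 h in SL (horizontal), with cho2 in red and WT in black, points for the 2 libraries and lines through their means. For MET3 and MET17 the cho2 points lie above WT in YPL and below it at 1 h and 3 h, with MET3 at 7147 and 6798 in cho2 and 13946 and 15728 in WT at 3 h. STR3 and HOM3 did not pass the test of the strain difference at 3 h.

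Beyond sulfur, CHA1 had the largest lower response among the named genes. CHA1 had 43.7 and 57.0 reads in cho2 cells at 3 h, against 2391 and 3000.4 in cho2 cells in YPL, and 242 and 241 in WT at 3 h, against 2544 and 1428 in WT in YPL. The gene fell in both strains, and the strain difference was -2.74 ± 0.36. Lower responses also passed for SPS19 and FAA2, genes of fatty acid oxidation, at -1.08 ± 0.14 and -0.96 ± 0.15, with the reservations that FAA2 overlaps YER014C-A and that its call was lost without the second cho2 library in YPL and without both second libraries at 3 h. The 15 genes with a higher response in cho2 cells included 2 of the 10 for arginine synthesis. ARG1 (YOL058W), argininosuccinate synthase, had 1836 and 1837 reads in cho2 cells at 3 h, against 613 and 672 in cho2 cells in YPL, and 1059 and 737 in WT at 3 h, against 937 and 900.3 in WT in YPL. ARG1 thus rose in cho2 cells, did not pass in WT at -0.06 ± 0.16, and differed by 1.57 ± 0.23. ARG4 differed by 1.20 ± 0.20, and the other 8 genes of the list did not pass this test.

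HO (YDL227C), the mating-type switching endonuclease, had the largest higher response by the naming rule. HO had 304 and 273 reads in cho2 cells at 3 h, against 417 and 425 in cho2 cells in YPL, and 117 and 83.2 in WT at 3 h, against 668 and 729.8 in WT in YPL. Its response was -0.55 ± 0.22 in cho2 cells (limma adjusted p = 0.0463) and -2.81 ± 0.22 in WT, a strain difference of 2.26 ± 0.31. IZH4 (YOL101C), a membrane protein gene of zinc and sterol response, had 287 and 363 reads in cho2 cells at 3 h, against 69.2 and 111 in cho2 cells in YPL, and 146 and 109.9 in WT at 3 h, against 121 and 134 in WT in YPL, a strain difference of 1.88 ± 0.36. INO1, high at 3 h in both strains, had 7172 and 6780.0 reads in WT at 3 h, against 304 and 323 in WT in YPL, and its response was higher in cho2 cells by 0.94 ± 0.14. OLE1 (YGL055W), at 0.99 ± 0.19, BIO2 (YGR286C), the biotin synthase, at 0.87 ± 0.17, ODC2 (YOR222W), a mitochondrial oxodicarboxylate carrier, at 1.11 ± 0.19, SRL1 (YOR247W), a cell wall mannoprotein, at 1.08 ± 0.22 and RCF1 (YML030W), a respiratory supercomplex factor, at 0.80 ± 0.15 completed the 10 named. In this test 806 genes had an unadjusted p under 0.05.

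**Figure D5:**
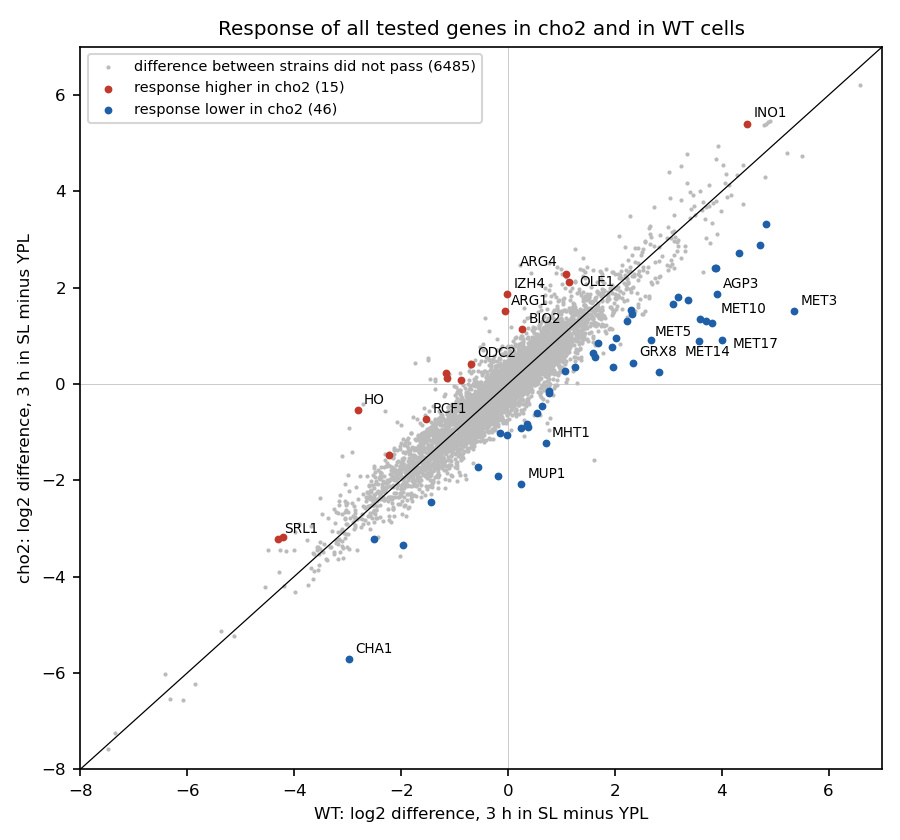
Log2 difference of 3 h in SL minus YPL in cho2 cells (vertical) against WT cells (horizontal) for the 6546 tested genes; the line marks equal responses. Blue points, 46, had a lower and red points, 15, a higher response in cho2 cells at a limma adjusted p under 0.05 for the difference itself. Most genes lie along the line (r = 0.941), with MET3 at 1.51 in cho2 and 5.36 in WT far below it.

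The number of genes with a strain difference depended on the libraries and on the test. It was 35 without the second cho2 library at 3 h, whose ribosomal RNA share stood apart, 66 without both second libraries at 3 h, a setting chosen after seeing the data, and 107 without the first WT library at 3 h. The 10 named genes with a lower response passed in all 19 of the alternatives run, while of the 10 with a higher response only HO and ARG1 did.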

How the data were processed

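RNA sequencing of 12 libraries, 2 for each of 2 strains in YPL and at 1 h and 3 h in SL, was analysed. Per the labels, poly-A RNA from 4 µg of total RNA was made into stranded libraries and sequenced on an Illumina HiSeq. The authors deposited a signal per gene, namely read counts normalised with DESeq after alignment with Bowtie to sacCer2, per the submitters' processing notes. Versions, the counting tool, the gene annotation and whether strand was used: not given in the sources used here. Whole reads could be recovered from 100% of the values within 0.01 read. Of 6685 names, 6006 matched the R64 annotation. Among listed genes placed in it, 283 had a near-identical copy (95% identity over 50% of the length, blastn 2.17.0) and 220 overlapped another. The 679 unmatched names were not screened for copies or overlaps.

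The 6546 genes with a value of at least 10 in 2 libraries were rescaled with TMM factors (edgeR 4.0.16), taken as log2(value + 1), so that changes of low genes are understated, and tested with limma 3.58.1 (trend, all 12 libraries, 1 mean per group, two-sided, Benjamini-Hochberg over all genes) in R 4.3.3. A gene passed at an adjusted p under 0.05. The 4 comparisons were cho2 at 3 h against YPL, the difference of that response from WT, WT at 3 h against YPL, and cho2 at 3 h against 1 h. The script was tested on simulated data. The text names the 15 largest rises and falls, and the 10 largest strain differences in each direction, among genes that pass and have a higher group mean of 50 or more, cho2 libraries at 3 h and in YPL apart, a standard symbol and no copy, plus core members of the lists and those with the largest differences. The comparison and the lists were chosen with earlier results of these data known. Alternatives were the values as deposited, median-of-ratios and quantile scaling, a pseudocount of 5, no filter or a minimum of 50, a replicate block, the groups of the contrast alone, count tests on the recovered reads (edgeR, DESeq2 1.42.0), and fits without each library in turn. No sequence is shown, since no genome of the files' build was used here.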

Additional observations from a re-analysis of the deposited data

Results flagged for a closer look

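The response to 3 h in SL differed between cho2 and WT cells, by a limma test of the difference itself, for 61 genes at an adjusted p under 0.05, and the 20 named among them are given here with the strain difference in log2 units (cho2 response minus WT response). The 10 with a lower response in cho2 cells are given before the 10 with a higher one. MET3 stood at -3.85, MET17 at -3.09, CHA1 at -2.74, MET10 at -2.55 and MET14 at -2.39. MUP1 stood at -2.33, MET5 at -2.25, AGP3 at -2.05, MHT1 at -1.94 and GRX8 at -1.89. The others are higher, HO at 2.26, IZH4 at 1.88, ARG1 at 1.57, ARG4 at 1.20 and ODC2 at 1.11, followed by SRL1 at 1.08, OLE1 at 0.99, INO1 at 0.94, BIO2 at 0.87 and RCF1 at 0.80.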

How the results depend on the processing

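The count of genes that passed in cho2 cells at 3 h against YPL stayed within 1.5 times the 4229 reported under every alternative run, with 3491 to 3808 when 1 library was left out. The same held in WT, with 3526 to 3836. Against 1 h, the 2604 genes became 1561 to 2047, where leaving out the first or the second 1 h library gave 1561 and 1622. The strain difference moved most. Its 61 genes became 151 with DESeq2 on recovered reads, 35 when only the groups of the contrast were fitted, and 32 to 107 with 1 library left out. The extremes were 32 without either cho2 library in YPL and 107 when the first WT library at 3 h was dropped, and dropping the first WT library in YPL or the second cho2 library at 3 h gave 35. A setting chosen after seeing the data, without both second libraries at 3 h, gave 66, of which 9 were higher and 57 lower in cho2 cells. Of the calls, 24.6% were higher responses in cho2 cells in the fit reported, 10.9% on the values as deposited, 35.8% with DESeq2 and 14.3% with only the groups of the contrast. For cho2 at 3 h against YPL, rises were 45.2% of the calls, 34.9% on the values as deposited. Against 1 h, higher genes were 50.3% of the calls, 25.2% on the values as deposited. The labels do not say that a number marks a shared culture or day, and the deviations of same-numbered libraries from their group means correlated unevenly between groups, from -0.195 to 0.542. The correlation was -0.015 between cho2 at 3 h and in YPL and 0.422 between cho2 and WT at 3 h, so pairing by number was not taken as given. With a replicate block all the same, 4357 genes passed in cho2 cells at 3 h against YPL, 75 for the strain difference, 4210 in WT and 2771 against 1 h.

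All 30 genes named as largest rises and falls in cho2 cells kept their direction and call wherever they were tested. Among the 20 named strain differences no direction turned. The calls of OLE1 were lost in 11 alternatives, of BIO2 and RCF1 in 10, of SRL1 in 9, of IZH4 and ODC2 in 7, of ARG4 in 4 and of INO1 in 1. Small counts in several lists moved by over 1.5 times in cho2 cells at 3 h against YPL, among them the rises in the lists of iron (5 to 9), aromatic synthesis (2 to 5), phosphate (2 to 5), purines (1 to 3), replication (2 to 6), cell separation (0 to 2), trehalose and glycogen (4 to 9), the endoplasmic reticulum (2 to 7) and beta-oxidation (3 to 7), and the falls of autophagy and of proteasome genes (1 to 3 each). In sulfate assimilation 6 to 9 of the 10 genes had a lower response that passed. Directions turned only for genes that did not pass, and the cause was not tested. In cho2 cells at 3 h against YPL, GAP1 was at 0.016 and GCN4 at -0.19 after quantile normalization, and GCN4 was at -0.052 on the values as deposited. With 1 library left out, GAP1 ranged over -0.20 to 0.013, GCN4 over -0.011 to 0.22 and KGD4 over -0.088 to 0.76. The strain difference of HOM3 was 0.021 after quantile normalization and -0.21 to 0.15 with 1 library left out, and that of STR3 was -0.25 to 0.069. The WT response of ARG1 was 0.070 after quantile normalization, 0.0060 with DESeq2 and -0.32 to 0.21 with 1 library left out. Where leaving out a library left a group with 1, that library was taken to vary like the others. With 2 libraries a group, small strain differences were not detectable, and the second WT library at 3 h, with 3166868 reads, measures low genes least precisely.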

Other observations

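Genes of peroxisomal beta-oxidation, which shortens fatty acids, and of the glyoxylate cycle had no common direction in cho2 cells but lay mostly on 1 side of the strain comparison. Among 18 beta-oxidation genes 6 rose and 3 fell in cho2 cells at 3 h in SL against YPL. The strain difference of the response was below 0 for all 18, with a median of -0.70 on the log2 scale against -0.01 over all tested genes, and it passed for SPS19 and FAA2. CTA1, the peroxisomal catalase, had 10898 and 11081 reads in cho2 cells at 3 h, against 9359 and 12172 in cho2 cells in YPL, and 12919 and 13964 in WT at 3 h, against 5983 and 6726 in WT in YPL. Both cho2 libraries were above both WT libraries in YPL and below them at 3 h, but the strain difference did not pass (limma adjusted p = 0.0522). The number of these genes that passed was 1 to 10 across the alternatives, with 10 under DESeq2. For the glyoxylate cycle and acetyl-CoA list, 15 of 17 genes were below 0, with a median of -0.59.

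Cytosolic ribosomal protein genes stood on the other side, with a strain difference above 0 for 131 of 138 and a median of 0.44, although no single gene passed in the fit reported. Across the alternatives this median was 0.23 to 0.63 and 0 to 5 genes passed. The lowest median was that without the first WT library in YPL, and the second of these libraries lay 0.37 below the first at the median gene of the list. In the 45 respiratory chain and ATP synthase genes the median was 0.30, and none passed. These lists were singled out after their values were seen. Without both second libraries at 3 h, whose ribosomal RNA share stood apart, the medians were -0.76 for beta-oxidation, -0.70 for the glyoxylate list, 0.27 for cytosolic ribosomal proteins and 0.26 for the respiratory list.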
